A study of Mus musculus with 30 samples.

Results

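The genes described here are 9 C-type lectin receptor genes of myeloid and natural killer (NK) type, namely Clec4n, Clec4d, Clec4e, Clec4a2, Clec7a, Clec12a, Clec5a, Klrb1b and Klrk1. They stood among the 46603 genes of the count table, of which 25626 had at least 1 read in any library. Each name stood on 1 row. They were chosen by name, with their levels and differences in these 30 libraries already known, and no contrast or threshold is recorded for that choice. Folds and adjusted p-values given for the 9 genes therefore set each difference against the spread between libraries, and are not independent evidence that these genes stand out.

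The libraries hold bulk RNA of tumour-associated macrophages (TAMs) sorted from subcutaneous 3LL-R tumours, a lung carcinoma line grown in wild-type (WT) C57BL/6 mice. The sort separated cells with low surface MHC class II (MHC-IIlo) from cells with high surface MHC class II (MHC-IIhi). The 6 groups, of 5 libraries each, were MHC-IIlo and MHC-IIhi TAMs kept for 24 h in medium with 20 mM sodium L-lactate, the same subsets kept for 24 h in medium without added lactate, and the same subsets lysed fresh from the sorter. Lactate is the acid product of glycolysis that builds up in many tumours, and the study asked how it alters gene expression in each subset. Cultures were started from 250000 sorted cells and lysed in the plate, and fresh libraries came from 30000 cells sorted into lysis buffer. Culture therefore cannot be told apart from cell number and way of lysis in any comparison of cultured with fresh cells. The labels call the libraries biological replicates and do not say how many tumours or mice stand behind each, so p-values measure the spread between libraries.

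C-type lectin receptors are membrane proteins that bind sugars, lipids or other proteins and signal through short tyrosine motifs. Activating members pair with the adaptor chains Fcer1g, Tyrobp or Hcst, or carry a motif of their own. Through Fcer1g, Tyrobp or their own motif, the signal passes to the kinase Syk and from there to the Card9, Bcl10 and Malt1 complex. Inhibitory members carry a motif that recruits the phosphatases Ptpn6 and Ptpn11. On macrophages these receptors sense fungi, mycobacteria and the debris of dead cells, and on NK cells they read ligands on the surface of stressed or healthy cells.

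All 9 genes lie on chromosome 6 of the mouse genome (GRCm38). Clec4a2, Clec4n, Clec4d and Clec4e lie in the Dectin-2 cluster, between base 123106428, where Clec4a2 starts, and base 123289870, where Clec4e ends. Klrb1b (128813706 to 128826331), Clec12a (129342691 to 129365303), Clec7a (129461591 to 129472779) and Klrk1 (129610323 to 129623864) lie in the NK gene complex. Clec5a stands apart at 40574894 to 40585821. RefSeq promoter windows of GRCm38.p6, each 250 bases before to 50 bases after the annotated start, were matched for 8 of the 9, all but Clec4n. Windows of Clec4d and Clec4e, neighbours that both rose in culture, and of Klrb1b and Klrk1, the genes with the largest subset differences of the 9, are shown 5′ to 3′ on the gene's strand. Capitals mark matches, on either strand, to 4 motifs: the PU.1 core GAGGAA, the AP-1 site TGANTCA, the C/EBP site TTNNGNAA and an NF-kB pattern of GGG and CC with any 5 bases between.
Clec4d, chr6:123261857-123262156, plus strand: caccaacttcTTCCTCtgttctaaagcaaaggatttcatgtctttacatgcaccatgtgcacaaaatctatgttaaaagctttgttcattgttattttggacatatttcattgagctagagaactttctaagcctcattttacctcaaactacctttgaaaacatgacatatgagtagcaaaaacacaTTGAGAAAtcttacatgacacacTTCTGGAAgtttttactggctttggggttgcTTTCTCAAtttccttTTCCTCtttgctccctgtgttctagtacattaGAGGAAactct
Clec4e, chr6:123289822-123290121, minus strand: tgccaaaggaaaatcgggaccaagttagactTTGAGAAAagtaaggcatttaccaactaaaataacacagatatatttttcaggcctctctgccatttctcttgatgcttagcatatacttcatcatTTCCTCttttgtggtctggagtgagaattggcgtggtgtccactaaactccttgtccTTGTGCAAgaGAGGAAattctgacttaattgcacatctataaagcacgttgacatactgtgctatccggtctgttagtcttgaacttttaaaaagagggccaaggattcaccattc
Klrb1b, chr6:128826266-128826565, minus strand: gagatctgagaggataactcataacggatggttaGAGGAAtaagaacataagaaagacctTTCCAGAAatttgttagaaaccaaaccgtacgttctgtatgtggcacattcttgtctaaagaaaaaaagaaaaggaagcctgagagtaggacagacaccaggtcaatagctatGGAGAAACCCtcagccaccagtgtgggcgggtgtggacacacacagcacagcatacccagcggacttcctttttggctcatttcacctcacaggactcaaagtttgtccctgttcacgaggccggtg
Klrk1, chr6:129623815-129624114, minus strand: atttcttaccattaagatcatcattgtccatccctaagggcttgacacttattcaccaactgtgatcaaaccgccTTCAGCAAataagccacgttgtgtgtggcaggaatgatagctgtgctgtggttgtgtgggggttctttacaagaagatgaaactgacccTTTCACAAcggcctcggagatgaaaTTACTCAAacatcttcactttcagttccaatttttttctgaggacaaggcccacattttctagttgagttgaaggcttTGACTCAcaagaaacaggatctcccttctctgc
The Clec4d window held 3 PU.1 cores and 3 C/EBP matches, and that of Clec4e held 2 of each. Both windows carry the C/EBP word TTGAGAAA. In the Klrb1b window there were 1 PU.1 core, 1 C/EBP match and 1 NF-kB match, and in that of Klrk1 1 AP-1 match, 3 C/EBP matches and no PU.1 core. Of the 8 windows, 6 held the PU.1 core, against 28.3% of the windows of 27025 mouse genes. C/EBP matches stood in 7 of 8 (40.7% of all windows), AP-1 in 3 of 8 (7.93%) and NF-kB in 1 of 8 (50.4%). A match is a run of letters and no evidence of binding.

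Libraries held 16913250 to 31481548 reads assigned to genes. H2-Ab1, an MHC class II gene and so a check of the sort, averaged 16.2 ± 4.69 CPM in lactate MHC-IIlo and 1008 ± 127 CPM in lactate MHC-IIhi (SD, n = 5 each), where CPM is a gene's reads scaled to the same total in every library. Without lactate the means were 28.4 ± 21.2 CPM in MHC-IIlo cells, against 1131 ± 253 CPM in MHC-IIhi, and in fresh cells 91.5 ± 36.4 CPM in MHC-IIlo cells, against 4971 ± 559 CPM in MHC-IIhi. Summed levels of 10 macrophage markers were 3745 to 8681 CPM in the cultured libraries, 13454 to 16084 CPM in fresh MHC-IIlo and 8638 to 11280 CPM in fresh MHC-IIhi. The macrophage marker Adgre1 averaged 575 ± 84.6 CPM in fresh MHC-IIlo and 185 ± 46.2 CPM in fresh MHC-IIhi, so the subsets differed in it too. Monocyte markers (8 genes) summed to 193 to 267 CPM in lactate MHC-IIlo, 520.0 to 812 CPM in lactate MHC-IIhi, 143 to 219.7 CPM in no-lactate MHC-IIlo and 335 to 749 CPM in no-lactate MHC-IIhi, and to 2510 to 3711 CPM in fresh libraries. By edgeR at an adjusted p under 0.05, 6 of the 8 were lower and 1 higher in MHC-IIlo than in MHC-IIhi in each medium. Over all genes 13.3% were lower and 9.13% higher with lactate, and 11.6% and 9.20% without, and the marker sums did not overlap. Culture without lactate over fresh lowered 7 (29.9%) and raised 1 (27.6%) in MHC-IIlo, and lowered 5 (30.4%) and raised 2 (31.6%) in MHC-IIhi. Ly6c2 was among those raised in MHC-IIhi (log2 fold change 4.90). The sums thus moved with culture and with the cultured subset differences of Clec5a, Klrb1b and Klrk1. The part of these markers in those was not tested. The 5 B cell markers summed to at most 2.89 CPM in every library outside fresh MHC-IIhi, where they reached 10.1 to 23.5 CPM. Markers of neutrophils are given beside Clec4d and Clec4e, and those of NK, T and dendritic cells beside Klrb1b and Klrk1. Like Klrb1b and Klrk1, those sums were higher in MHC-IIhi than in MHC-IIlo, but with lactate the NK and T cell sums overlapped. They did not follow culture. In MHC-IIhi, culture without lactate lowered Klrb1b and Klrk1, while the dendritic cell sum was 88.6 to 296 CPM, against 18.04 to 37.1 CPM fresh. Lactate MHC-IIlo library 5 stood apart, with a root mean square distance of 0.709 (log2) from its group's mean against at most 0.459 in the other 29 libraries, and values in lactate MHC-IIlo that turned on it are given with and without it.

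In fresh TAMs most of the 9 receptors were lower in MHC-IIlo than in MHC-IIhi cells. By the edgeR quasi-likelihood test 7 of 9 were lower and 1, Clec4d, was higher at an adjusted p under 0.05, where 15.2% of the 12787 genes tested were lower and 14% higher. Klrb1b and Klrk1 passed the filter on low counts only with their MHC-IIhi libraries, so their calls lend these counts no support. Of the other 7, 5 were lower and 1 higher, with a median log2 fold change of -0.42, beside 0.00 over all genes. Clec4e did not pass, with a log2 fold change of -0.11 ± 0.15, adjusted p = 0.639 (log2 fold changes are of the group named first over the other, ± SE, n = 5 libraries per group). Klrb1b and Klrk1 differed most, and Clec7a came next. In bulk RNA, fewer cells of a type and less RNA per cell cannot be told apart.

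With lactate 3 of 9 were lower in MHC-IIlo than in MHC-IIhi cells (13.3% of 13593 genes tested) and none was higher (9.13% of all). At an unadjusted p under 0.05, 5 were lower and 0 higher. After 24 h without lactate the count was again 3 lower (11.6% of all) and 0 higher (9.20%), with 4 lower and 0 higher at an unadjusted p under 0.05. The 3 were Clec5a, Klrb1b and Klrk1 in each medium. Klrb1b passed the filter on low counts through its MHC-IIhi libraries alone, so its call lends no support. Over the other 8 the median log2 fold change was -0.61 with lactate, beside 0.02 over all genes, and -0.14 without, beside -0.01. With the lactate MHC-IIlo library 5 left out, the lactate median was -0.38.

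**Figure D1:**
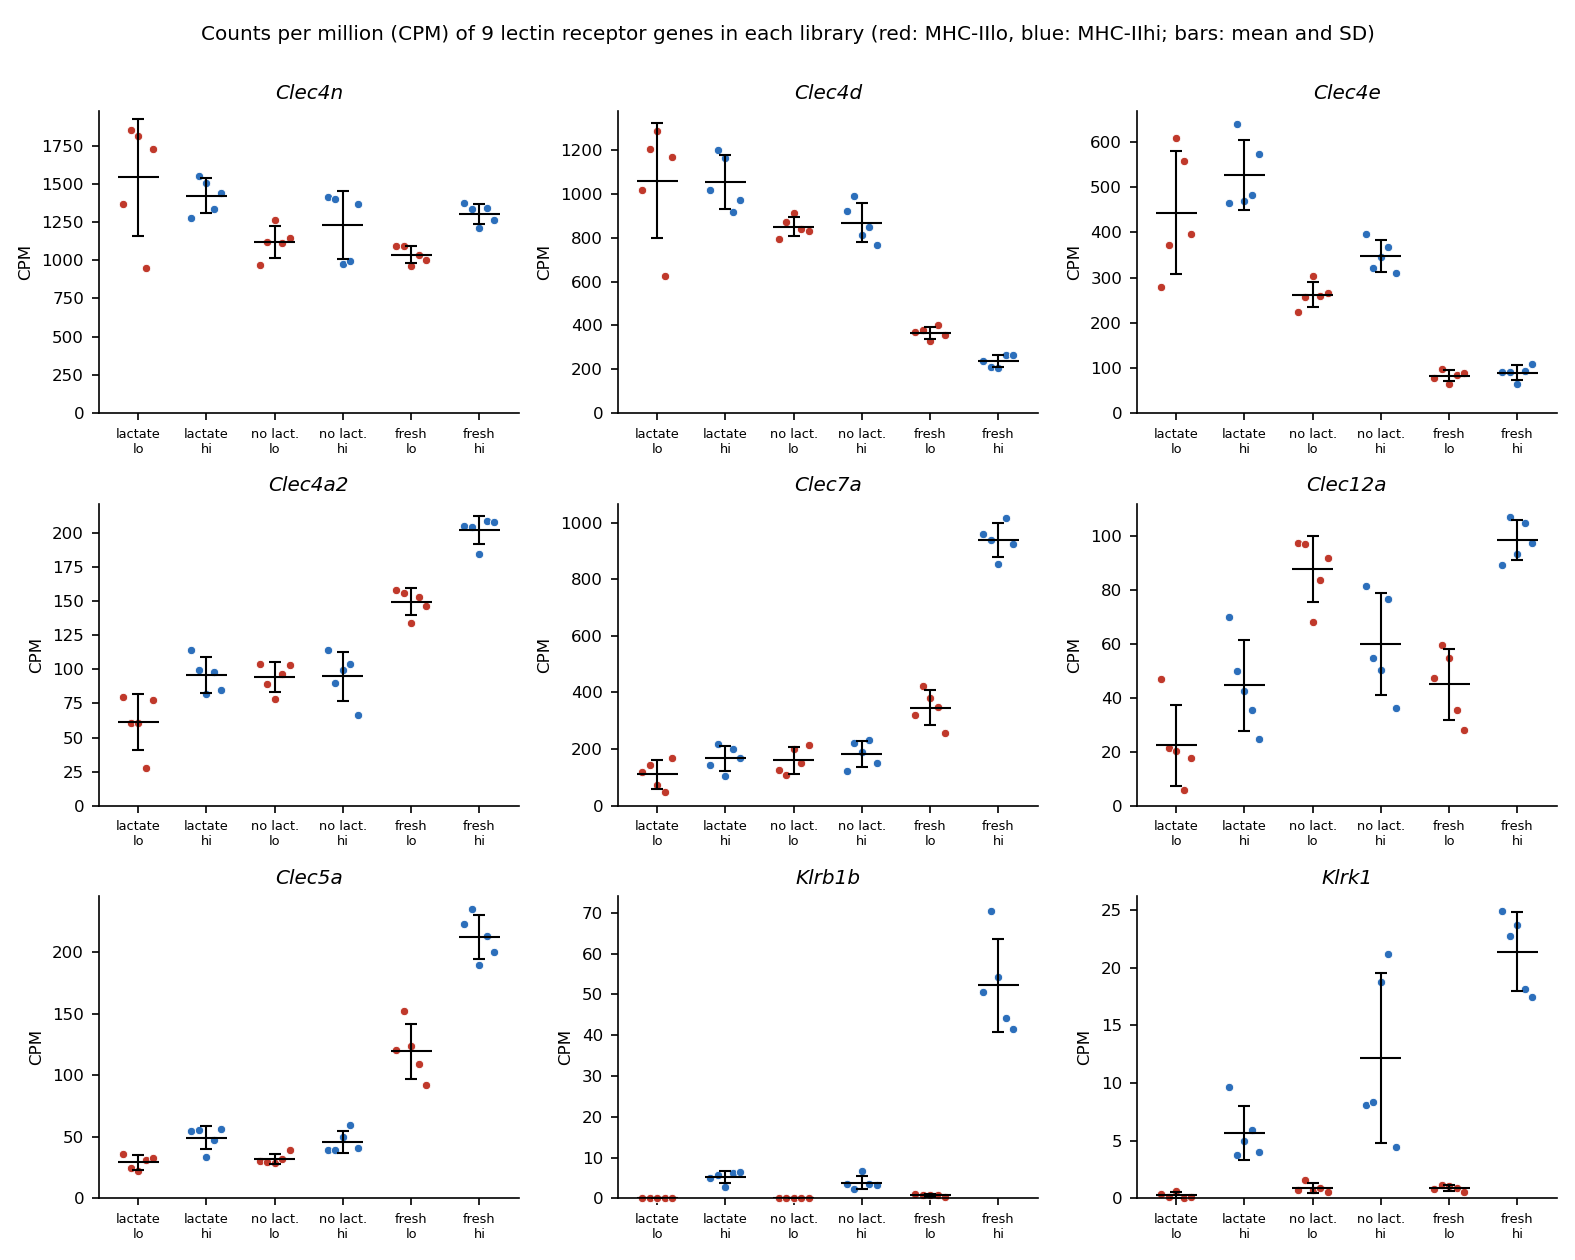
CPM of each of the 9 receptor genes in each library, 1 panel per gene with its own axis, which starts at 0; groups run lactate, no lactate and fresh, with MHC-IIlo left of MHC-IIhi. Points are libraries and bars are means with SD (n = 5); Clec4d and Clec4e were higher in every cultured library than in every fresh one, and Clec7a reached 854 to 1018 CPM in fresh MHC-IIhi libraries only.

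Clec4n encodes Dectin-2, which binds fungal mannans and signals through Fcer1g. It had the highest level per kilobase of transcript of the 9 in each of the 6 groups, with means between 1087 CPM per kb in lactate MHC-IIlo and 730.1 CPM per kb in fresh MHC-IIlo. With lactate its libraries, in order of number, had 1371, 1855, 1814, 949 and 1726 CPM in MHC-IIlo cells, against 1277, 1553, 1503, 1337 and 1440.5 CPM in MHC-IIhi. Without lactate the values were 967, 1119, 1262, 1112 and 1148 CPM in MHC-IIlo cells, against 1414, 1399, 977, 993 and 1370.5 CPM in MHC-IIhi. Cultured subsets overlapped in either medium. Fresh libraries had 1092, 1091, 964, 1033 and 1004 CPM in MHC-IIlo cells, against 1373, 1333, 1214, 1341 and 1264 CPM in MHC-IIhi. The fresh groups did not overlap, and the log2 fold change was -0.32 ± 0.08, adjusted p = 0.00987. Fitting all 30 libraries together lost it (adjusted p = 0.200). Lactate over no lactate gave 0.44 ± 0.20, adjusted p = 0.246 in MHC-IIlo, against 0.22 ± 0.20, adjusted p = 0.764 in MHC-IIhi, neither past the threshold. In MHC-IIlo that depends on lactate library 5, the lowest of its group, without which Clec4n gave 0.63 (adjusted p = 0.0389). Culture over fresh gave 0.16 ± 0.12, adjusted p = 0.256 in MHC-IIlo, against -0.05 ± 0.12, adjusted p = 0.746 in MHC-IIhi, so Clec4n passed the test of culture in neither subset. Fits of the authors' quantile-normalised FPKM (reads scaled to gene length and library total) called the MHC-IIhi value (-0.38).

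Clec4d encodes MCL, a receptor that pairs with Mincle and binds the mycobacterial glycolipid cord factor. It was the receptor of the 9 that was higher in fresh MHC-IIlo cells, and culture raised it in both subsets. With lactate the libraries had 1016, 1205, 1284, 626 and 1168 CPM in MHC-IIlo cells, against 1018, 1199, 1163, 919 and 973 CPM in MHC-IIhi. Without lactate they had 793, 869, 911, 841 and 832 CPM in MHC-IIlo cells, against 923, 989.8, 812, 851 and 767 CPM in MHC-IIhi. The cultured subsets overlapped in each medium, as did the media in each subset, and every cultured library was above every fresh one. Fresh libraries had 369, 378, 329, 402 and 355 CPM in MHC-IIlo cells, against 236, 209.8, 207, 266 and 265 CPM in MHC-IIhi, with no overlap (0.64 ± 0.12, adjusted p = 0.00125). Culture without lactate over fresh gave 1.26 ± 0.13, adjusted p = 2.7e-08 in MHC-IIlo, against 1.90 ± 0.13, adjusted p = 5.1e-11 in MHC-IIhi. The culture effect was smaller in MHC-IIlo by a test of the difference itself (-0.64 ± 0.18, adjusted p = 0.0184). That call was lost with all 30 libraries in 1 fit (adjusted p = 0.115) and in the FPKM fits, where the difference was -0.22. The 9 neutrophil markers, some of which other myeloid cells also express, summed to 1103 to 1882 CPM in fresh MHC-IIlo, against 295 to 674 CPM in fresh MHC-IIhi. Their sum thus moved with Clec4d between the fresh subsets. Of 6 tested that did not need the MHC-IIlo libraries to pass the filter on low counts, 5 were higher and 0 lower. Over all genes 14% were higher and 15.2% lower. None of the 9 was at 0. Mmp9 and Mmp8 had an average log2 CPM of 8.99 and 8.26 in the fresh libraries, against 4.33 for S100a9. The part of neutrophils in the Clec4d difference was not tested.

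Clec4e encodes Mincle, the inducible receptor for cord factor and for a nuclear protein released by dying cells, and signals through Fcer1g. With lactate its libraries had 280.1, 373, 609, 557 and 397 CPM in MHC-IIlo cells, against 466, 639, 469, 482 and 574 CPM in MHC-IIhi, and overlapped (-0.28 ± 0.16, adjusted p = 0.221). Without lactate the values were 225, 257, 303, 259 and 267 CPM in MHC-IIlo cells, against 396, 322, 345, 368 and 309.6 CPM in MHC-IIhi. These groups did not overlap, but the log2 fold change of -0.38 ± 0.16, adjusted p = 0.0994 did not pass. All 5 lactate MHC-IIhi libraries were above all 5 no-lactate MHC-IIhi libraries, and in MHC-IIlo only the lactate library 1, at 280.1 CPM, fell within the range without lactate. Fresh levels were lower and overlapped, with 76.6, 97.9, 65.2, 83.9 and 88.5 CPM in MHC-IIlo cells, against 91.7, 90.6, 63.8, 92.6 and 109 CPM in MHC-IIhi. Culture without lactate raised Clec4e in both subsets, with 1.72 ± 0.15, adjusted p = 2.2e-09 in MHC-IIlo, against 1.99 ± 0.15, adjusted p = 2.0e-10 in MHC-IIhi.

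Lactate over no lactate gave 0.70 ± 0.16, adjusted p = 0.0363 for Clec4e in MHC-IIlo, against 0.60 ± 0.16, adjusted p = 0.164 in MHC-IIhi. Clec4e was the 1 receptor of 9 higher with lactate in MHC-IIlo, where 0.905% of 13593 genes were higher, and Clec12a the 1 lower, where 0.581% were. In MHC-IIhi 0 of 9 were higher (0.206% of all) and 0 lower (0.0441%), with 1 higher, Clec4e, and 1 lower, Klrk1, at an unadjusted p under 0.05. DESeq2 called Clec4e in MHC-IIhi (adjusted p = 0.0484). The difference between the lactate effects of Clec4e in the subsets was 0.10 ± 0.23, adjusted p = 0.918, so the call in MHC-IIlo alone does not show that the subsets differ. The call in MHC-IIlo depended on single libraries. It was lost in 9 of 10 fits that left out 1 library of either MHC-IIlo group (adjusted p 0.0529 to 0.104) and kept with the lactate MHC-IIlo library 1 left out (0.81, adjusted p = 0.00673), with log2 folds between 0.50 and 0.81. With the lactate MHC-IIlo library 5, which stood apart, left out it was 0.71 (adjusted p = 0.0529), and with library 4 left out it was 0.50 (adjusted p = 0.0922). The neutrophil markers, which include genes that other myeloid cells also express, summed to 599 to 1717 CPM in lactate MHC-IIlo and 776 to 1041 CPM in no-lactate MHC-IIlo, and to 1553 to 2347 CPM in lactate MHC-IIhi and 735 to 1056 CPM in no-lactate MHC-IIhi. Of 4 tested, lactate raised 0 in MHC-IIlo and 1, Mmp8, in MHC-IIhi (1.23, adjusted p = 0.0472 by edgeR). Mmp8 had an average log2 CPM of 10.1 in the cultured libraries, so it weighs heavily in these sums. Ly6g and Ngp, defining neutrophil genes, were at 0 in both lactate groups, and the part of neutrophils in the Clec4e values was not tested.

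Clec4a2 encodes DCIR, an inhibitory receptor of the cluster, whose tail recruits phosphatases. With lactate its means were 61.4 ± 20.8 CPM in MHC-IIlo cells, against 95.9 ± 12.98 CPM in MHC-IIhi (SD, n = 5 each). All lactate MHC-IIlo libraries (27.8 to 80.0 CPM) were below all lactate MHC-IIhi libraries (82.3 to 115 CPM), yet -0.64 ± 0.24, adjusted p = 0.0639 did not pass. Library 5 was the lowest, and without it the value was -0.41 (adjusted p = 0.0655), while without library 1, the highest, it was -0.76 and passed (adjusted p = 0.0392). Without lactate the means were 94.4 ± 10.8 CPM in MHC-IIlo cells, against 94.9 ± 18.02 CPM in MHC-IIhi, and the groups overlapped. Its lowest, median and highest libraries were 134, 153 and 158 CPM in fresh MHC-IIlo, against 184, 205 and 209 CPM in fresh MHC-IIhi, with no overlap (-0.42 ± 0.09, adjusted p = 0.00232), and this too failed when all 30 libraries were fitted together (adjusted p = 0.164). Culture lowered Clec4a2 in both subsets (-0.61 ± 0.14, adjusted p = 6.2e-04 in MHC-IIlo, against -1.05 ± 0.14, adjusted p = 8.9e-07 in MHC-IIhi). Clec4a2 has near copies in Clec4a1 and Clec4a3, and reads that fit more than 1 of them may be split in a way the counts do not show.

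The 4 receptors of the Dectin-2 cluster thus showed 3 different patterns: Clec4d and Clec4e higher in culture, Clec4a2 lower, and Clec4n past the threshold in neither subset. The other 5 annotated genes between Clec4a2 and Clec4e had too few reads to be tested. Clec4a1 and Clec4a3, outside that interval, had higher means in no-lactate culture than fresh, unlike Clec4a2. In MHC-IIlo the means were 305 against 211 CPM for Clec4a1 and 238 against 76.8 CPM for Clec4a3. In MHC-IIhi they were 465 against 199 CPM and 323 against 116 CPM.

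Clec7a encodes Dectin-1, the receptor for fungal beta-glucan, which carries its own activating motif and signals through Syk and Card9. It was high in fresh MHC-IIhi cells and lower in all other groups. In lactate medium its libraries had 120.5, 145, 71.7, 46.8 and 168 CPM in MHC-IIlo cells, against 145, 218, 105, 199 and 168 CPM in MHC-IIhi. Without lactate the values were 126, 107, 201, 149.9 and 215 CPM in MHC-IIlo cells, against 124, 221, 191, 232 and 150.3 CPM in MHC-IIhi. The cultured groups overlapped, and the subset difference did not pass with lactate (-0.57 ± 0.30, adjusted p = 0.187) or without it (-0.18 ± 0.30, adjusted p = 0.734). Leaving out lactate MHC-IIlo library 5, the lowest, moved the lactate value to -0.34. Fresh libraries had 321, 421, 381, 348 and 257 CPM in MHC-IIlo cells, against 959.7, 939, 854, 1018 and 924 CPM in MHC-IIhi. The fresh groups were far apart, with -1.44 ± 0.11, adjusted p = 1.2e-06. Culture over fresh gave -1.06 ± 0.18, adjusted p = 3.5e-05 in MHC-IIlo, against -2.32 ± 0.19, adjusted p = 7.0e-10 in MHC-IIhi. The fall was larger in MHC-IIhi by the test of the difference (1.26 ± 0.25, adjusted p = 0.00185). The annotation in the count table lists Clec7a as a polymorphic pseudogene, a class for genes that are broken in some strains or haplotypes.

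Clec12a encodes MICL, an inhibitory receptor that binds uric acid crystals from dead cells. In lactate medium its libraries had 46.8, 21.4, 20.2, 5.81 and 17.8 CPM in MHC-IIlo cells, against 69.8, 49.9, 42.6, 35.5 and 24.8 CPM in MHC-IIhi, and overlapped (-0.99 ± 0.40, adjusted p = 0.0842). Without lactate the values were 97.4, 97.0, 68.2, 83.7 and 91.6 CPM in MHC-IIlo cells, against 81.4, 54.7, 50.1, 76.6 and 36.2 CPM in MHC-IIhi, which also overlapped (0.58 ± 0.39, adjusted p = 0.336). Fresh libraries had 47.3, 59.3, 54.8, 35.4 and 27.9 CPM in MHC-IIlo cells, against 89.2, 107, 93.2, 105 and 97.4 CPM in MHC-IIhi, without overlap (-1.13 ± 0.15, adjusted p = 1.0e-04). Culture without lactate moved the subsets in opposite directions. Clec12a rose in MHC-IIlo (1.05 ± 0.20, adjusted p = 1.6e-04) and fell in MHC-IIhi (-0.67 ± 0.20, adjusted p = 0.00680), a difference that passed its own test (1.71 ± 0.29, adjusted p = 3.5e-04). The fall in MHC-IIhi was lost with all 30 libraries in 1 fit (adjusted p = 0.0957).

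All 5 lactate MHC-IIlo libraries were below all 5 no-lactate MHC-IIlo libraries in Clec12a. Lactate over no lactate gave -1.97 ± 0.41, adjusted p = 0.0235 in MHC-IIlo, against -0.40 ± 0.40, adjusted p = 0.792 in MHC-IIhi. The difference between the subsets in the lactate effect was -1.57 ± 0.56, adjusted p = 0.630 and did not pass. No gene in the table passed that test of the difference in the edgeR fit (0% higher and 0% lower), although 1018 had an unadjusted p under 0.05, and DESeq2 called 3. With the lactate MHC-IIlo library 1 left out, 8 genes passed. Among the 9 receptors 1, Clec12a, had an unadjusted p under 0.05. The lactate call in MHC-IIlo held with the lactate library 5, the lowest, left out (-1.70, adjusted p = 0.0180) and with the lactate library 1 left out (-2.43, adjusted p = 0.00351). It was lost in 6 of the 10 fits that left out 1 library, those omitting lactate library 3, 4 or 6 or no-lactate library 1, 3 or 6, with adjusted p of 0.0524 to 0.0604. Between the subsets in lactate medium, leaving out MHC-IIlo library 5 gave -0.72 (adjusted p = 0.114) and leaving out MHC-IIlo library 1 gave -1.45, which passed (adjusted p = 0.0101).

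Clec5a encodes MDL-1, an activating receptor that signals through Tyrobp. It was lower in MHC-IIlo than in MHC-IIhi cells in all 3 states and lower in culture than in fresh cells. In lactate medium the lowest, median and highest libraries were 22.01, 31.4 and 36.2 CPM in MHC-IIlo cells, against 33.5, 54.5 and 56.2 CPM in MHC-IIhi, with -0.79 ± 0.16, adjusted p = 0.00145. Without lactate they were 29, 30.2 and 39.7 CPM in MHC-IIlo cells, against 38.9, 41.1 and 59.4 CPM in MHC-IIhi, with -0.48 ± 0.16, adjusted p = 0.0416. In culture each pair overlapped. Fresh libraries had 92.2, 120.3 and 153 CPM in MHC-IIlo cells, against 190.1, 214 and 235 CPM in MHC-IIhi, and did not overlap (-0.83 ± 0.10, adjusted p = 5.3e-05). With lactate the call held without library 5 (-0.73, adjusted p = 0.00388). The call without lactate was lost in 6 of 10 fits that left out 1 library of these groups, those without MHC-IIlo library 1, 3, 4 or 5 or MHC-IIhi library 5 or 6, and the smallest fold was -0.34 (adjusted p = 0.140) without MHC-IIhi library 6. Culture lowered Clec5a by more than any other Clec gene of the 9 in MHC-IIlo (-1.83 ± 0.13, adjusted p = 1.2e-10), and in MHC-IIhi the value was -2.18 ± 0.13, adjusted p = 7.0e-12.

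Klrb1b encodes NKR-P1B, an inhibitory receptor of NK cells whose ligand in the mouse is Clec2d. Nearly all of its reads came from MHC-IIhi libraries. With lactate no MHC-IIlo library had a read, against 5.08, 5.74, 2.80, 6.19 and 6.55 CPM in MHC-IIhi. A count of 0 allows up to 3 reads over the group, or 0.0248 CPM, so the level in lactate MHC-IIlo was at least 210-fold lower than in lactate MHC-IIhi. Without lactate 4 of 5 MHC-IIlo libraries had no read and library 1 had 1, against 3.60, 2.36, 6.59, 3.53 and 3.27 CPM in MHC-IIhi. That is a 524-fold lower level in MHC-IIlo (95% counting interval 93.5 to 20722). No p is given for these, since MHC-IIlo libraries held 0 reads or 1. Fresh libraries had 1.18, 0.893, 0.714, 0.828 and 0.254 CPM in MHC-IIlo cells, against 50.6, 70.5, 54.2, 44.2 and 41.5 CPM in MHC-IIhi. The log2 fold change was -6.06 ± 0.23, without overlap. Intervals and limits here cover counting error only.

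Culture lowered Klrb1b in MHC-IIhi, where culture without lactate over fresh gave -3.72 ± 0.23, adjusted p = 9.5e-12. In MHC-IIlo the cultured level was 104-fold lower (95% counting interval 18.02 to 4143), on 1 read in library 1. Lactate over no lactate in MHC-IIhi was 0.46 ± 0.28, adjusted p = 0.636, with overlapping libraries. In MHC-IIlo no lactate fold can be given, since both groups were at or under 3 reads. The gene RP24-127M20.8 overlaps Klrb1b on the same strand in the annotation and had no read.

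Klrk1 encodes NKG2D, the activating receptor of NK and T cells that pairs with Hcst and binds the Raet1, Ulbp1 and H60 stress ligands. It was lower in MHC-IIlo than in MHC-IIhi cells in each state, without overlap. With lactate the libraries had 0.342, 0.0953, 0.663, 0.0533 and 0.121 CPM in MHC-IIlo cells, against 9.62, 3.75, 4.94, 5.95 and 4.05 CPM in MHC-IIhi (-4.50 ± 0.58, adjusted p = 1.0e-05). Leaving out the lactate MHC-IIlo library 5 made that fold -4.22 (adjusted p = 2.9e-05). Over all fits leaving out 1 library it lay between -5.24, with the MHC-IIlo library 4 left out, and -4.15. In medium without lactate the values were 0.702, 1.59, 0.712, 0.915 and 0.587 CPM in MHC-IIlo cells, against 8.06, 8.35, 18.8, 21.2 and 4.48 CPM in MHC-IIhi (-3.70 ± 0.50, adjusted p = 1.4e-05). Fresh libraries had 0.785, 1.16, 1.05, 0.925 and 0.508 CPM in MHC-IIlo cells, against 24.9, 22.8, 23.7, 18.1 and 17.4 CPM in MHC-IIhi (-4.58 ± 0.18). The no-lactate MHC-IIhi libraries were the most spread. Lactate over no lactate gave -1.87 ± 0.62, adjusted p = 0.115 in MHC-IIlo, against -1.07 ± 0.44, adjusted p = 0.422 in MHC-IIhi, neither past the threshold in edgeR. With the lactate library 5 left out the MHC-IIlo value was -1.59, and over all fits leaving out 1 library it lay between -2.60, without lactate library 4, and -1.52, without no-lactate library 3. DESeq2 called the MHC-IIlo value (-1.86, adjusted p = 0.0223). The MHC-IIlo level lies below 2 CPM, so few reads stand behind it. Culture over fresh gave 0.11 ± 0.43, adjusted p = 0.845 in MHC-IIlo, against -0.77 ± 0.31, adjusted p = 0.0365 in MHC-IIhi. The MHC-IIhi call was lost in 6 of 10 fits that left out 1 library, those without no-lactate MHC-IIhi library 3, 4 or 7 or fresh MHC-IIhi library 1, 2 or 3, and with all 30 libraries in 1 fit (adjusted p = 0.0670).

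Markers of NK and T cells (14 genes) were also higher in sum in MHC-IIhi cells. With lactate the sums were 6.71 to 15.5 CPM in MHC-IIlo cells, against 14.2 to 20.5 CPM in MHC-IIhi, and overlapped. Without lactate they were 7.11 to 16.7 CPM in MHC-IIlo cells, against 21.3 to 35.5 CPM in MHC-IIhi. Fresh sums were 4.37 to 13.5 CPM in MHC-IIlo cells, against 17 to 26.3 CPM in MHC-IIhi. Of 5 markers tested there, 4 had too few MHC-IIlo libraries at the cutoff of the filter on low counts to pass without MHC-IIhi, so no count is given. Among those 4, Klrb1c (-0.47, adjusted p = 0.438) and Cd3d (-1.30, adjusted p = 0.153) did not pass the edgeR test. The other 2, Klrd1 and Gzmb, were lower in MHC-IIlo, calls that lend no support. The 1 marker that did not need MHC-IIhi was not called (log2 fold change -0.55). Klrd1, a marker of that list and a partner chain of NK lectins, averaged 0.0827 ± 0.0475 CPM in fresh MHC-IIlo and 4.17 ± 1.53 CPM in fresh MHC-IIhi. In fresh MHC-IIhi Klrb1b averaged 52.2 ± 11.4 CPM and Klrk1 21.4 ± 3.40 CPM. In culture 2 markers passed that filter without needing 1 subset's libraries. Of these, 0 were higher (9.13% of all genes) and 1 lower (13.3%) in MHC-IIlo with lactate, and 0 higher (9.20%) and 1 lower (11.6%) without it. That gene was Gzmb, at -1.98 (adjusted p = 0.00414) with lactate and -1.97 (adjusted p = 0.00253) without. Ncr1, a defining NK cell gene, had no read in lactate MHC-IIhi or fresh MHC-IIlo and at most 0.409 CPM in any library of the others. Eomes was at 0 in lactate MHC-IIhi and Klrb1c in no-lactate MHC-IIhi.

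Dendritic cell markers (8 genes) also moved with the subsets. With lactate they summed to 0.796 to 1.33 CPM in MHC-IIlo cells, against 89.6 to 244 CPM in MHC-IIhi. Without lactate the sums were 0.499 to 3.95 CPM in MHC-IIlo cells, against 88.6 to 296 CPM in MHC-IIhi. Fresh sums were 2.23 to 4.78 CPM in MHC-IIlo cells, against 18.04 to 37.1 CPM in MHC-IIhi. The members of that list did not move together in culture. In no-lactate culture over fresh in MHC-IIhi, Ccr7 (4.84, adjusted p = 7.8e-08) and Flt3 (3.73, adjusted p = 3.2e-07) rose, while Cd209a averaged 0.0168 ± 0.0375 CPM in no-lactate MHC-IIhi and 12.97 ± 6.74 CPM in fresh MHC-IIhi. Siglech was at 0 in all cultured groups and Xcr1 in fresh MHC-IIlo. The part of NK, T or dendritic cells in the levels of Klrb1b and Klrk1 was not tested.

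**Figure D2:**
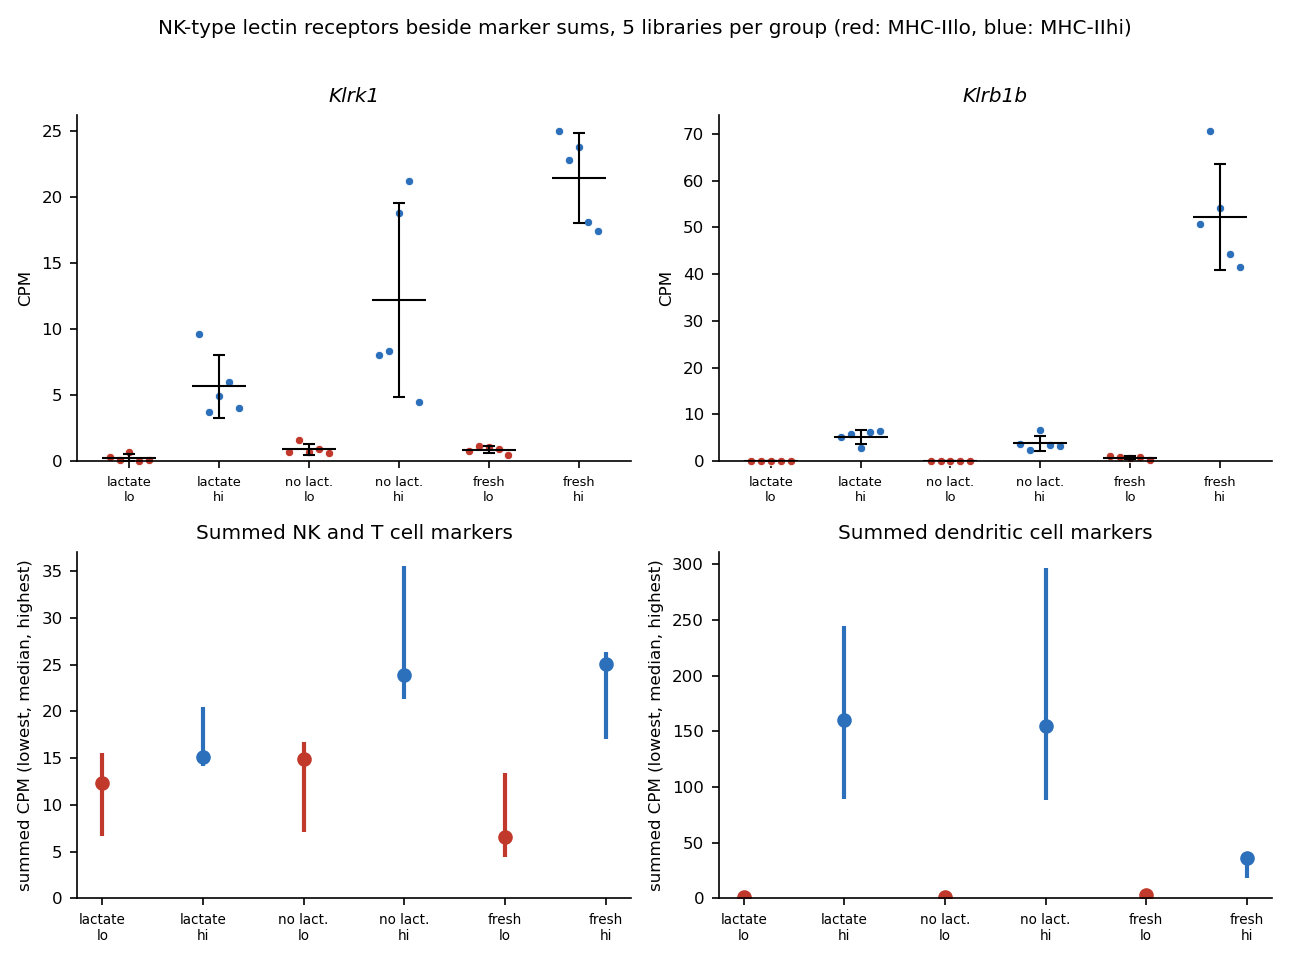
CPM of Klrb1b and Klrk1 in each library beside the summed CPM of the NK and T cell markers and of the dendritic cell markers, by group with MHC-IIlo left of MHC-IIhi. The MHC-IIlo and MHC-IIhi libraries did not overlap for Klrb1b or Klrk1 in any state, and the dendritic cell marker sum was 88.6 CPM or more in every cultured MHC-IIhi library.

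Between culture without lactate and fresh cells, 3 of 9 were higher (27.6% of 13682 genes tested) and 4 lower (29.9%) in MHC-IIlo, Klrb1b with its 1 read among the 4. In MHC-IIhi 2 were higher (31.6% of all) and 6 lower (30.4%). The median log2 fold change of the 9 was 0.11 in MHC-IIlo, beside -0.01 over all genes, and -0.77 in MHC-IIhi, beside 0.01 over all genes. The subset difference in the culture effect passed as higher for 2, Clec7a and Clec12a (6.03% of all genes), and as lower for 1, Clec4d (8.27%). Over the 8 receptors other than Klrb1b its median was 0.40, beside -0.02 over all genes. These comparisons share the no-lactate groups with the lactate comparisons and the fresh groups with the fresh comparison.

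**Figure D3:**
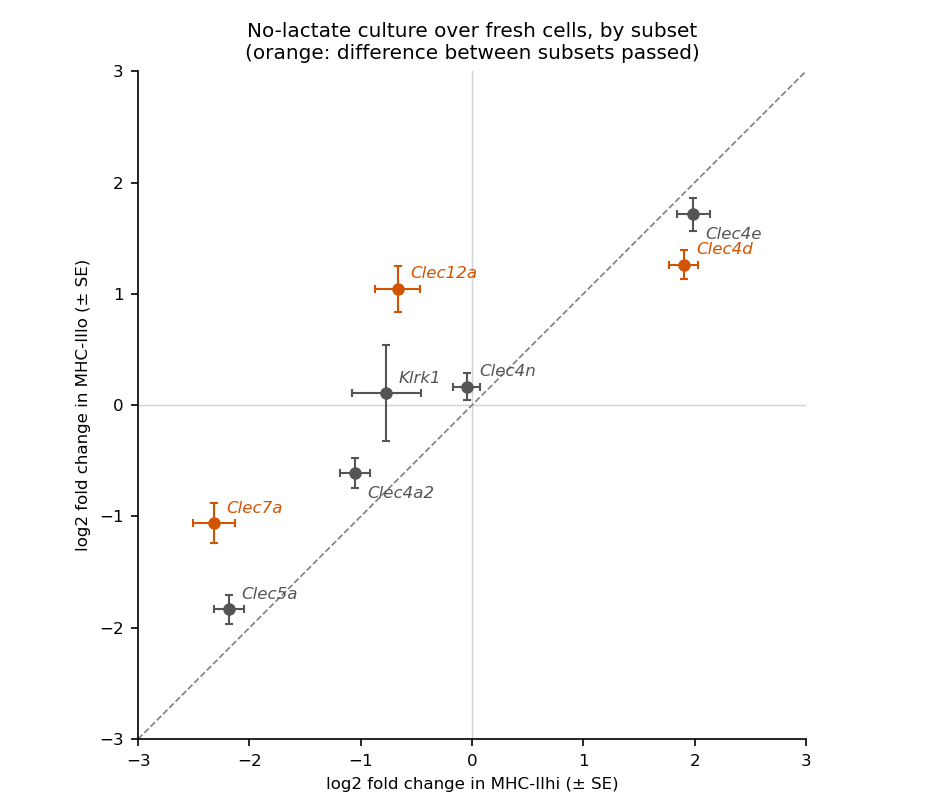
Log2 fold change of culture without lactate over fresh in MHC-IIlo cells (vertical axis) against that in MHC-IIhi cells (horizontal axis), with SE bars in both directions (n = 5 libraries per group); the dashed line marks equal change, and Klrb1b, with 1 read in no-lactate MHC-IIlo, is not drawn. Clec4d and Clec4e lie above 0 in both subsets, Clec5a, Clec7a and Clec4a2 below 0 in both, and Clec12a on opposite sides; orange marks the 3 genes (Clec12a, Clec7a and Clec4d) whose difference between subsets passed.

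Over the lactate comparisons the median log2 fold change was -0.36 in MHC-IIlo, over the 8 receptors other than Klrb1b, beside 0.01 over all genes, and -0.22 with the lactate library 5 left out. In MHC-IIhi it was 0.12 over the 9, beside -0.01. Clec4d gave 0.30 ± 0.20, adjusted p = 0.445 in MHC-IIlo, against 0.29 ± 0.20, adjusted p = 0.666 in MHC-IIhi, and without library 5 the MHC-IIlo value was 0.50 (adjusted p = 0.0710). Clec5a gave -0.19 ± 0.16, adjusted p = 0.585 in MHC-IIlo, against 0.12 ± 0.16, adjusted p = 0.867 in MHC-IIhi, and without library 5 the MHC-IIlo value was -0.13. Clec7a gave -0.54 ± 0.30, adjusted p = 0.370 in MHC-IIlo, against -0.14 ± 0.30, adjusted p = 0.917 in MHC-IIhi, and Clec4a2 -0.64 ± 0.24, adjusted p = 0.174 in MHC-IIlo, against 0.03 ± 0.24, adjusted p = 0.985 in MHC-IIhi. Without library 5 the MHC-IIlo values were -0.30 (adjusted p = 0.607) for Clec7a and -0.41 (adjusted p = 0.228) for Clec4a2. None of these passed.

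**Figure D4:**
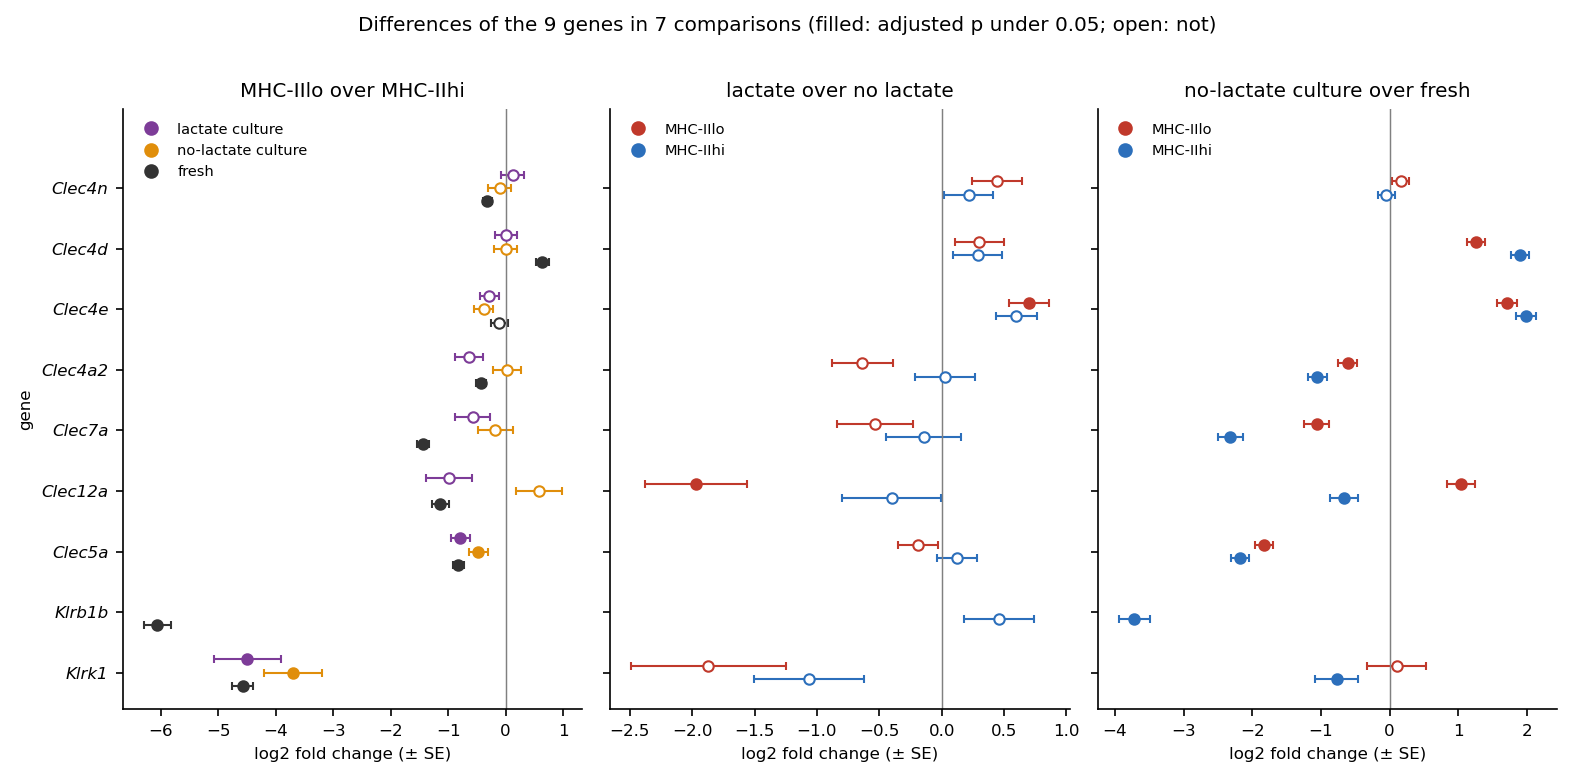
Log2 fold changes, with SE bars, of the receptors (rows) in the subset, lactate and culture comparisons (panels, n = 5 libraries per group); filled points passed at an adjusted p under 0.05, and Klrb1b is not drawn where a group held 0 or 1 reads. In the fresh subset comparison 7 receptors lie below 0 and passed, and of the lactate points drawn those of Clec4e (0.70) and Clec12a (-1.97) in MHC-IIlo are filled.

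Per kilobase of transcript the order of the receptors changed between states. In lactate MHC-IIlo the means in CPM per kb were 1087 ± 269.8 for Clec4n, 663 ± 164 for Clec4d, 89.3 ± 27.5 for Clec4e and 41.9 ± 19.2 for Clec7a (SD, n = 5). Below these came Clec4a2 at 20.99 ± 7.11, Clec5a at 7.63 ± 1.55, Clec12a at 4.05 ± 2.71, Klrk1 at 0.0355 ± 0.0354 and Klrb1b at 0 CPM per kb. In fresh MHC-IIhi the order was Clec4n at 919 ± 45.5, Clec7a at 356 ± 22.5, Clec4d at 148 ± 17.9, Clec4a2 at 69.1 ± 3.46 and Clec5a at 55.3 ± 4.62 CPM per kb. It went on with Klrb1b at 23.4 ± 5.12, Clec4e at 18.05 ± 3.29, Clec12a at 17.8 ± 1.34 and Klrk1 at 2.98 ± 0.474 CPM per kb, of which Klrb1b and Clec4e, and Clec4e and Clec12a, had overlapping intervals of mean ± SD. In lactate MHC-IIlo the same held for Clec4n and Clec4d, for Clec7a and Clec4a2 and for Clec5a and Clec12a, so the order within these pairs is not resolved.

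Fcer1g, the partner of Clec4n, Clec4d and Clec4e, averaged 516 ± 37.3 CPM in no-lactate MHC-IIlo and 835 ± 84.4 CPM in fresh MHC-IIlo, and culture over fresh gave -0.64 ± 0.16, adjusted p = 0.00161 in MHC-IIlo, against -0.30 ± 0.16, adjusted p = 0.109 in MHC-IIhi. Tyrobp, the partner of Clec5a, gave -0.35 ± 0.15, adjusted p = 0.0485 in MHC-IIlo, against -0.98 ± 0.15, adjusted p = 8.3e-06 in MHC-IIhi. Hcst, the partner of Klrk1, averaged 9.03 ± 0.989 CPM in fresh MHC-IIlo and 8.35 ± 1.14 CPM in fresh MHC-IIhi, and its subset fold there was 0.12 ± 0.16, adjusted p = 0.623. The kinase Syk rose in culture, by 1.03 ± 0.11, adjusted p = 8.5e-08 in MHC-IIlo, against 0.98 ± 0.11, adjusted p = 1.4e-07 in MHC-IIhi.

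Of 21 genes of adaptor chains and the activating relay, all tested, 1 was higher (14% of all genes) and 10 lower (15.2%) in fresh MHC-IIlo than in fresh MHC-IIhi, with a list median of -0.21 (log2), beside 0.00 over all genes. The largest were Malt1, the protease of the Card9 complex (-1.33, adjusted p = 4.2e-06), the kinase Prkcd (-0.88, adjusted p = 5.6e-07) and the phospholipase Plcg2 (-0.82, adjusted p = 1.9e-05). In culture 0 were higher and 8 lower in MHC-IIlo than in MHC-IIhi, with lactate (9.13% and 13.3% of all genes) and without (9.20% and 11.6%), and Malt1 was among them with lactate (-1.52, adjusted p = 2.4e-06). Lactate moved 0 of 21 in either subset. Over all genes 0.905% were higher and 0.581% lower in MHC-IIlo, and 0.206% and 0.0441% in MHC-IIhi, so the count is near those shares. Culture over fresh raised 4 (27.6% of all genes) and lowered 9 (29.9%) in MHC-IIlo (median -0.18, beside -0.01 over all genes), and raised 7 (31.6%) and lowered 9 (30.4%) in MHC-IIhi (median -0.18, beside 0.01). Card9, the relay downstream of Syk, fell by 1.47 (log2, adjusted p = 6.2e-08) in MHC-IIlo and by 2.18 (adjusted p = 1.5e-10) in MHC-IIhi, the opposite direction to Syk. The adaptor Blnk in MHC-IIlo (1.67, adjusted p = 4.5e-09) and the kinase Src in MHC-IIhi (1.34, adjusted p = 2.9e-11) rose.

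Of 8 inhibitory phosphatase and relay genes, 1 was higher (14% of all genes) and 4 lower (15.2%) in fresh MHC-IIlo (median -0.19). Cblb, a ubiquitin ligase that restrains such receptors, was higher (0.99, adjusted p = 5.9e-04), and the kinase Csk (-0.57, adjusted p = 6.8e-05) and the phosphatase Ptpn6 (-0.42 ± 0.07, adjusted p = 6.4e-04) were lower. Culture over fresh raised 3 and lowered 2 in MHC-IIlo, where 27.6% of all genes were higher and 29.9% lower, and raised 3 and lowered 3 in MHC-IIhi, where the shares were 31.6% and 30.4%. These counts are near the shares over all genes. Cblb rose by 1.49 (adjusted p = 8.3e-09) in MHC-IIlo and 1.76 (adjusted p = 6.9e-10) in MHC-IIhi, and the docking protein Dok2 gave -2.59 (adjusted p = 2.6e-11) in MHC-IIlo and -2.77 (adjusted p = 8.5e-12) in MHC-IIhi. With lactate 0 of the 8 rose and 1, Cblb, fell in MHC-IIlo (-0.39, adjusted p = 0.0401), beside 0.905% higher and 0.581% lower over all genes.

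Ligands of Klrb1b and Klrk1 were listed as 7 genes, of which 6 were in the table and 5 tested. Clec2d, the Klrb1b ligand, averaged 20.8 ± 2.25 CPM in fresh MHC-IIlo and 15.1 ± 1.92 CPM in fresh MHC-IIhi, a direction opposite to Klrb1b (0.47 ± 0.11, adjusted p = 0.00555). Culture raised Clec2d in MHC-IIlo (1.49 ± 0.27, adjusted p = 6.3e-05) and in MHC-IIhi (1.68 ± 0.27, adjusted p = 1.5e-05). The Klrk1 ligand Raet1d fell in culture by 1.39 (log2, adjusted p = 1.2e-06) in MHC-IIlo and by 1.55 (adjusted p = 2.2e-07) in MHC-IIhi. Raet1e fell by 1.09 (adjusted p = 4.6e-04) in MHC-IIlo and by 0.68 (adjusted p = 0.0142) in MHC-IIhi. None of the 5 passed in a lactate comparison, which is near the shares over all genes (0.905% higher and 0.581% lower in MHC-IIlo, 0.206% and 0.0441% in MHC-IIhi).

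Other myeloid C-type lectin genes were listed as 21, of which 11 were tested in fresh cells. Counts here leave out genes that passed the filter on low counts only through 1 side of a comparison, since such a gene had to differ. Of the other 10, 1 was higher (14% of all genes) and 4 lower (15.2%) in fresh MHC-IIlo (median -0.25, beside 0.00 over all genes). The oxidised lipoprotein receptor Olr1 (-1.46, adjusted p = 1.6e-04) and the activation marker Cd69 (-1.11, adjusted p = 0.00218) fell. Clec4b1, a further Dectin-2 family gene, was left out there, at 0.217 ± 0.160 CPM in fresh MHC-IIlo and 11.1 ± 2.43 CPM in fresh MHC-IIhi. In no-lactate culture it averaged 0.278 ± 0.228 CPM in MHC-IIlo cells, against 0.267 ± 0.167 CPM in MHC-IIhi. Between the cultured subsets 10 were counted, with 0 higher (9.13% of all) and 6 lower (13.3%) in MHC-IIlo with lactate, and 0 higher (9.20%) and 3 lower (11.6%) without it. Cd69 fell in each medium, at -1.84 (adjusted p = 9.8e-04) with lactate and -2.40 (adjusted p = 6.2e-05) without. Culture over fresh gave 3 higher and 3 lower of 10 in MHC-IIlo, with 4 higher and 4 lower of the 10 in MHC-IIhi. Over all genes the higher and lower shares were 27.6% and 29.9% for MHC-IIlo, and 31.6% and 30.4% for MHC-IIhi. The dendritic cell receptor Ly75 rose by 2.26 (adjusted p = 7.3e-07) in MHC-IIhi.

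Of 25 other NK-type lectin genes, 24 were in the table. In fresh cells 6 were tested, but 4 of these needed MHC-IIhi libraries to pass the filter, which leaves Klrg2 (-1.14, adjusted p = 0.00709) and the Ly49 gene Klra2 (-0.50, adjusted p = 9.3e-04), both lower in MHC-IIlo. In culture 6 were tested and 4 again passed through 1 subset. Of the other 2, 0 were higher (9.13% of all genes) and 1 lower (13.3%) in MHC-IIlo with lactate, and 0 higher (9.20%) and 1 lower (11.6%) without it. That gene was Klra2, which averaged 19.7 ± 3.02 CPM in lactate MHC-IIlo and 46.5 ± 7.70 CPM in lactate MHC-IIhi.

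In the interval from Klrb1b to Klrk1 the annotation lists 42 genes that are not among the 9, genes overlapping its ends included. Each fit tested 12 of them, 11 of which were tested in all 3 fits. Several of these, Clec2d, Cd69, Olr1 and Klrd1 among them, also belong to the lectin lists above, so the counts are not separate from those. Between the cultured subsets 8 passed the filter without needing 1 subset's libraries, with 0 higher (9.13% of all genes) and 2 lower (13.3%) in MHC-IIlo with lactate, and 0 (9.20%) and 2 (11.6%) without it. Lactate moved none of the 12 in either subset, again near the shares over all genes (0.905% higher and 0.581% lower in MHC-IIlo, 0.206% and 0.0441% in MHC-IIhi). In fresh cells 9 passed the filter in that way, with 1 higher (14%) and 3 lower (15.2%). For culture over fresh 10 passed without needing 1 state, with 2 raised (27.6% of all) and 4 lowered (29.9%) for MHC-IIlo, and 2 raised (31.6%) and 5 lowered (30.4%) for MHC-IIhi.

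Each receptor's mean log2 level over the 6 groups was set beside that of every other gene with enough reads, as a root mean square difference after centring. Clec4n was closest to Psd4 (0.0467) and Rhebl1 (0.0607), Clec4d to Prokr1 (0.133) and Slc11a1 (0.134), and Clec4e to Prdx1 (0.180) and Slc22a4 (0.197). Clec4a2 was closest to Fes (0.0931) and Ptpro (0.112), Clec5a to Gm2a (0.0984) and Stk10 (0.0992), and Clec7a to Ppp1r3d (0.0762) and Mag (0.149). Clec12a was closest to Lpl (0.183) and Sirpb1a (0.312), Klrb1b to Dcstamp (0.466) and the MHC class II activator Ciita (0.609), and Klrk1 to P2ry10 (0.559) and Cd200r3 (0.578). These are likenesses of 6 group means from shared libraries and carry no test.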

How the data were processed

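RNA of TAMs was sequenced in bulk as 30 libraries in 6 groups of 5. The authors, per the submitters' processing notes, used Trimmomatic, STAR, featureCounts and the genome GRCm38; versions and the strand setting are not given in the sources used here. The count table deposited by the authors holds raw read counts of 46603 genes. A second deposited table holds FPKM of 13778 genes, and once multiplied by gene length its 30 columns hold the same sorted values, as quantile normalisation gives. Cultured columns could be placed in their group but not with a single sample record, so cultured libraries carry the numbers of the column headers.

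Counts were analysed with edgeR 4.0.16 in R 4.3.3: filterByExpr, TMM factors, group means, a 2-sided quasi-likelihood F test and Benjamini-Hochberg adjustment over all genes tested, passing at an adjusted p under 0.05. There were 3 fits: 1 of the 10 fresh libraries, 1 of the 20 cultured libraries, and 1 of the 20 libraries without lactate for culture against fresh. Printed CPM are counts scaled to the library's total, without TMM. Alternatives used DESeq2 1.42.0, and limma 3.58.1 on log2(FPKM + 1) and log2(FPKM + 0.1) of the deposited FPKM. The procedure was tested on simulated data.

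The 9 genes, the gene lists and the tests were chosen with earlier results of these data known. Named besides the 9 are Fcer1g, Tyrobp, Hcst, Syk, Card9, Ptpn6, Clec2d, Ncr1, H2-Ab1, Adgre1, and of each list at most 3 genes per comparison, those with the largest fold among genes that passed with an average log2 CPM of at least 1. Levels of Clec4a1 and Clec4a3 are given as near copies of Clec4a2. The 2 genes nearest to each receptor were ranked by the root mean square difference of centred group means of log2(CPM + 0.5).

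Fresh replicate numbers, which the sample labels give, pair the libraries: same-number deviations from the group means correlated with r of 0.133 to 0.617 in all 5 pairs. The same number was the best match in 4 of 5. The main fresh fit has no block, so the SE and adjusted p-values of the fresh subset comparison leave that pairing out. Libraries of 1 group differed beyond sampling noise in every pair (chi-square over its degrees of freedom 9.05 to 238), and none were identical.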

Additional observations from a re-analysis of the deposited data

Results flagged for a closer look

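Among 54 sets of 5 libraries (9 receptors in 6 groups), 2 had 1 library that lay far from the other 4 by Dixon's ratio of gap to range, with a critical value of 0.71; chance gives about 1 in 20. For Clec4a2, fresh MHC-IIhi library 3 was the lowest of its group at 184 CPM, against 204 CPM or more in the other 4. For Clec5a, no-lactate MHC-IIlo library 6 was the highest at 39.7 CPM, against 31.6 CPM or less in the other 4. The Klrb1b sets of lactate and no-lactate MHC-IIlo, with 0 reads and 1 read, are among the 54 but could not be flagged.

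The effect of culture without lactate differed between the subsets for 3 receptors by the edgeR test of the difference (MHC-IIlo minus MHC-IIhi, log2). The values were 1.71 for Clec12a, which rose in MHC-IIlo and fell in MHC-IIhi, 1.26 for Clec7a, which fell less in MHC-IIlo, and -0.64 for Clec4d, which rose less in MHC-IIlo.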

How the results depend on the processing

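The results were recomputed with RLE size factors, without the filter on low counts, with DESeq2, with limma on FPKM, with all 30 libraries in 1 fit, with replicate numbers as a block and without each library in turn. Of the fits that left out 1 library, 908 values kept their side of the threshold and their direction (or, if not called, changed sign by under 1 SE), 27 lost a call and 5 gained one; of the other settings 576 did so, 11 lost a call, 17 gained one and 12, not called, changed sign by 1 SE or more. The 12 all came from FPKM fits: Clec4d between the subsets without lactate (up to 0.27), Clec4e between them with lactate (0.01) and in the culture difference (up to 0.02), and Klrk1 in the lactate difference (up to 0.41). A pseudocount of 1 on FPKM shrank the subset folds of the low genes: Klrk1 gave -0.75 with lactate, -1.16 without and -1.999 in fresh cells, and Klrb1b -1.40, -1.10 and -4.27. Calls of Klrb1b in any state, and of Klrk1 in fresh cells, lend no support. Their MHC-IIlo libraries alone did not pass the filter on low counts. The same pseudocount gave -0.31 for Klrb1b under culture in MHC-IIlo, and, for values not called, -0.12 for Klrk1 under lactate in MHC-IIlo. With no change of sign, FPKM fits gave Clec4d between the subsets with lactate up to 0.51. No value reversed its call. The cause of the changes below was not tested.

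Between subsets with lactate, the receptors lower in MHC-IIlo numbered 5 in place of 3 with all 30 libraries in 1 fit and 5 with the replicate block on the header numbers, which added Clec4a2 (adjusted p = 0.0281 and 0.0212) and Clec12a (0.0391 and 0.0109), and 3 to 5 without 1 library. DESeq2 also called Clec4a2 there (0.0462), and Clec4e was called without lactate MHC-IIlo library 4 (-0.48, adjusted p = 0.0178). For lactate in MHC-IIlo the receptors higher numbered 0 to 1 and the receptors lower 0 to 1 without 1 library, and DESeq2 gave 2 lower. For lactate in MHC-IIhi DESeq2 gave 1 higher. Of the subset difference in the culture effect, FPKM fits gave 6 receptors higher with a pseudocount of 1, 4 with 0.1 and 6 with 1 and no filter, and 0 lower in each, and all 30 libraries in 1 fit gave 0 lower. Clec5a was called there without no-lactate MHC-IIhi library 6 (0.48, adjusted p = 0.0421). The all-library fit lost the fresh calls of Clec4a2 (adjusted p = 0.164) and Clec4n (0.200). The Clec5a call without lactate was lost with no filter (0.0563), with FPKM plus 0.1 (0.0507) and with FPKM plus 1 and no filter (0.0549).

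Cultured header numbers did not pair the libraries throughout (correlations from -0.48 to 0.61 over the group pairs), and no matching label gives them. Between subsets the same number was the best match in 3 of 4 libraries without lactate and 2 of 5 with it. Between media it was in 3 of 5 in MHC-IIlo and 2 of 4 in MHC-IIhi. Whether some of these libraries share a source is not known, and the main cultured fit has no block. The replicate block on them gave 499 genes higher and 612 lower with lactate in MHC-IIlo, in place of 123 and 79, and 59 higher and 22 lower in MHC-IIhi, in place of 28 and 6. On the label numbers of the fresh libraries the replicate block gave 2423 genes higher and 2581 lower, in place of 1790 and 1947, with 1 receptor higher and 7 lower as before.

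Klrb1b and Klrk1 are limited by depth in MHC-IIlo, where 3 reads over a cultured group are 0.0222 to 0.0248 CPM.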
